A study of Homo sapiens with 51 samples.

Results

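This account follows 29 genes of cholesterol and fatty acid synthesis, chosen by name, among the 24033 gene symbols of the study's expression table. All 29 had a value in each of 51 RNA-seq libraries. They comprise 7 genes of the mevalonate pathway (ACAT2, HMGCS1, MVK, PMVK, MVD, IDI1 and FDPS) and 9 that make squalene or carry it on to cholesterol (FDFT1, SQLE, LSS, CYP51A1, TM7SF2, NSDHL, HSD17B7, EBP and DHCR7). Another 5 sense or move sterols (SREBF1, SREBF2, SCAP, INSIG1 and STARD4), 4 make acetyl-CoA and palmitate (ACLY, ACSS2, ACACA and FASN), and 4 elongate or desaturate fatty acids (ELOVL6, SCD, FADS1 and FADS2).

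Cholesterol and fatty acids are built from acetyl-CoA, and the transcription factors encoded by SREBF1 and SREBF2 (the SREBPs) drive most genes of both routes. When membranes are rich in sterol, INSIG1 holds SCAP and its bound SREBP in the endoplasmic reticulum. When sterol is scarce, SCAP carries the SREBP to the Golgi, where proteases release the active factor. INSIG1 is itself a target of these factors, and SREBF1 also responds to the oxysterol receptor LXR.

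The cells were HMLE-TWIST1, which overexpress the transcription factor TWIST1, a driver of epithelial to mesenchymal transition, and the HMLE line, immortalised human mammary epithelial cells of the wild-type genotype. Chaetocin, a fungal compound known as an inhibitor of the H3K9 methyltransferases SUV39H1 and SUV39H2, was given to HMLE-TWIST1 cells at 100, 150, 200 or 500 nM for 48 h (day 2). In a washout group HMLE-TWIST1 cells had 80 nM for 15 h and then fresh medium for 48 h (day 4). DMSO groups of both lines stood beside these at day 2 and day 4. In both lines SUV39H1 and SUV39H2 were also knocked down with small interfering duplexes for 48 h (day 2), or for 48 h with a further 48 h in fresh medium (day 4), each beside a scrambled duplex. The medium mixed mammary epithelial growth medium with DMEM/F12 and fetal calf serum. There were 17 groups of 3 libraries, and nothing in the labels says that replicates were separate cultures, so p-values measure the spread between these samples, which may be technical.

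Libraries held 7897060 to 15662385 reads in listed genes. Levels are in RPKM (reads scaled for gene length and library size), and a log2 fold change is followed by its standard error and limma's p adjusted over all genes tested, with 0.05 as the threshold. Of the 7 epithelial markers checked, 7 were lower in HMLE-TWIST1 than in HMLE cells, with a summed level of 0.654 to 2.62 RPKM over the 33 HMLE-TWIST1 libraries and 1403 to 3502 RPKM over the 18 HMLE libraries. Of the 6 mesenchymal markers, 6 were higher. Summed leukocyte markers stayed at or under 4.89 RPKM and endothelial markers at or under 1.26 RPKM in every library. Only 2 of 4 leukocyte and 3 of 4 endothelial markers were among the listed genes, so these sums cover part of each set. The adipocyte list reached 4.07 RPKM in HMLE-TWIST1 and 319.9 RPKM in HMLE libraries. FABP4, a fatty acid binding protein, carried it in HMLE cells (301 ± 26.2 RPKM in scramble at day 4, SD, n = 3), where PLIN1, a lipid droplet protein that defines adipocytes, had 0.117 ± 0.0255 RPKM. The adipocyte markers did not all go 1 way. In DMSO and in scramble, at day 2 and at day 4, 1 was called lower in HMLE-TWIST1 than in HMLE cells. Another 1 was called higher each time, by 3.37 to 5.22 on the log2 scale. RNA was measured in bulk, so fewer cells of one kind and less RNA per cell cannot be told apart.

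Promoters of 4 genes that recur below are shown first, because each belongs to a different step: INSIG1 the sterol-sensing brake, SREBF2 the sterol regulator, SCD the enzyme that makes oleate, and HMGCS1 an early enzyme of the mevalonate pathway. Each line gives the 250 bases before the transcription start from RefSeq (GRCh38.p14), 5′ to 3′ on the gene's strand, with capitals marking CACNCCAC, a core of the sterol response element, or CCAAT, the site of the partner factor NF-Y, on either strand. The windows are INSIG1 on chr7:155297628-155297877 (plus strand), SREBF2 on chr22:41832855-41833104 (plus strand), SCD on chr10:100346983-100347232 (plus strand) and HMGCS1 on chr5:43313413-43313662 (minus strand).
INSIG1: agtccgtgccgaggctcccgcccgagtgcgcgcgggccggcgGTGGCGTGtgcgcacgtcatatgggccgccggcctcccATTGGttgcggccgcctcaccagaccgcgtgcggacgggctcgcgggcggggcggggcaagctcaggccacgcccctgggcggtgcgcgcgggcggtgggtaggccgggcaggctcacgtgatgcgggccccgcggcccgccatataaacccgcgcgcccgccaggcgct
SREBF2: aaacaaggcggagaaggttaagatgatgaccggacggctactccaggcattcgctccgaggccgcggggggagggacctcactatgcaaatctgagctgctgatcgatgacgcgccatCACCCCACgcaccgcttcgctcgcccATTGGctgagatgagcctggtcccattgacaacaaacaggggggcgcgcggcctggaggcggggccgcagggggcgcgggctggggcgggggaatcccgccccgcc
SCD: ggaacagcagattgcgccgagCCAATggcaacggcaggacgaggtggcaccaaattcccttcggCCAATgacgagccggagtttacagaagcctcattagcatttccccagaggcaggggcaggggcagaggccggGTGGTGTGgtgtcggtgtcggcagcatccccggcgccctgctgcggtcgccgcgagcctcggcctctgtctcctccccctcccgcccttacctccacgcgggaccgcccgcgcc
HMGCS1: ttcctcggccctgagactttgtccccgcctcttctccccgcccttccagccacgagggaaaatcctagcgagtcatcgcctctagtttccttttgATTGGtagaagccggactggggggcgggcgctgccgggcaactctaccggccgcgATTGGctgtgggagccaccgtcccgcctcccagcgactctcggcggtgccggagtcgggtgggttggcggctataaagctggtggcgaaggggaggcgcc
INSIG1, SREBF2 and SCD each held 1 CACNCCAC and HMGCS1 held 0, while CCAAT occurred 1 time in INSIG1 and in SREBF2 and 2 times in SCD and in HMGCS1. Such windows were found for 25 of the 29 genes. CCAAT stood in 16 of these 25 (64%), against 33% of the windows of 27305 genes. CACNCCAC stood in 3 of 25 (12%), against 4.72%. These 3 are INSIG1, SREBF2 and SCD, so the 4 windows shown do not represent the 25. CACGTG (an E-box) stood in SCAP and INSIG1 (8%), against 6.49%. Both strands were searched, and none of these motifs contains another. A match describes letters and is not a measured site.

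The levels of the 29 genes spanned wide ranges over the 17 groups. TM7SF2, a sterol reductase, varied most, with a highest group mean of 20.2 RPKM in HMLE scramble at day 4 and a lowest of 0.301 RPKM in HMLE-TWIST1 at 100 nM, a ratio of 67.0. FADS2, a desaturase of polyunsaturated fatty acids, followed with a ratio of 29.9, then FADS1 (16.0) and DHCR7 (11.5), the last enzyme of one route to cholesterol. SCAP varied least, between 5.04 and 7.26 RPKM, a ratio of 1.44. SCD reached the highest level of any of the 29, with a mean of 231.1 RPKM in HMLE-TWIST1 scramble at day 2. For 11 of the 29 genes the lowest group mean lay in HMLE-TWIST1 scramble at day 4, and for 11 the highest lay in HMLE-TWIST1 scramble at day 2. CYP51A1, a lanosterol demethylase, had 1 to 19 reads per library and overlaps other annotated genes on both strands, and the part of that overlap in its low count was not tested.

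**Figure D1:**
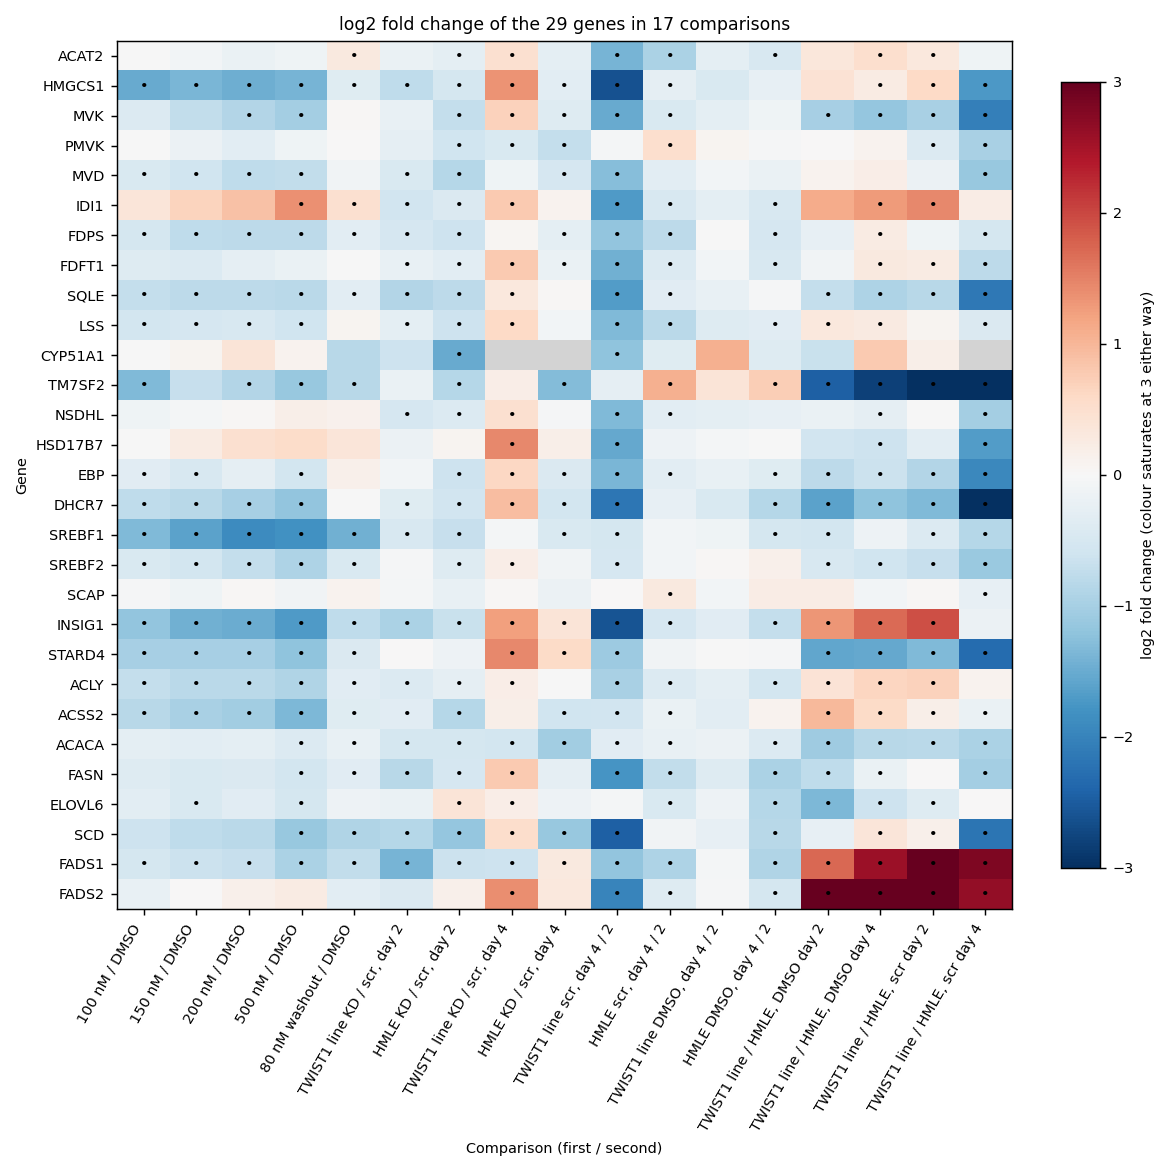
Log2 fold change of each of the 29 genes (rows) in 17 comparisons (columns, first group against second), red for higher and blue for lower in the first group, with the colour saturating at 3 either way. A dot marks adjusted p under 0.05 and grey a gene not tested; the columns of chaetocin against DMSO and of both day 2 knockdowns are mostly blue, that of the HMLE-TWIST1 knockdown at day 4 mostly red.

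Chaetocin lowered sterol and fatty acid genes at each dose in HMLE-TWIST1 cells. Against DMSO, 15 of 29 fell at 100 nM and 0 rose, where 11% of all genes tested fell and 12.3% rose. At 150 nM 15 fell and 0 rose (15.4% and 18.4% of all genes), at 200 nM 15 fell and 0 rose (17.7% and 21.7%), and at 500 nM 20 fell and 1 rose (23.1% and 27.1%). The median log2 fold change of the 29 was -0.45, -0.56, -0.70 and -0.74 with rising dose, while the median over all genes lay between 0.02 and 0.05. The 4 doses share their DMSO libraries, and they were deposited in a part of the table normalised apart from those libraries, so part and treatment cannot be told apart in these comparisons.

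Of the 5 regulators 4 fell at 100 nM and at 500 nM. SREBF1, the source of SREBP-1, had 11.98, 11.9 and 14.8 RPKM in DMSO, 5.38, 4.49 and 5.59 with 100 nM, 4.72, 3.57 and 4.35 with 150 nM, 4.03, 2.79 and 3.63 with 200 nM and 5.05, 3.45 and 2.81 RPKM with 500 nM. Every treated library lay below every DMSO library, and the log2 fold change was -1.32 ± 0.190, adjusted p = 0.000178 at 100 nM and -1.80 ± 0.190, adjusted p = 1.62e-06 at 500 nM. INSIG1 had 38.2, 44.8 and 68.98 RPKM in DMSO, 33.4, 19.2 and 15.8 with 100 nM, 23.3, 15.04 and 16.8 with 150 nM, 23.8, 13.2 and 16.6 with 200 nM and 23.7, 14.4 and 10.2 RPKM with 500 nM. Its replicate 1 was the highest at each dose and DMSO replicate 3 the highest of all, and still no treated library reached the lowest DMSO library. INSIG1 fell by 1.18 on the log2 scale at 100 nM (SE 0.359, adjusted p = 0.0284) and by 1.69 at 500 nM (SE 0.359, adjusted p = 0.00129). Without DMSO replicate 3 the 100 nM value lost its call (-0.93, adjusted p = 0.115), as it did without DMSO replicate 2 (adjusted p = 0.0556) or without replicate 2 (0.0854) or 3 (0.0906) at 100 nM.

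SREBF2, the source of SREBP-2, was at 10.3, 8.57 and 7.61 RPKM at 500 nM, against 16.8, 14.7 and 18.9 RPKM in DMSO (-0.93 ± 0.113, adjusted p = 5.61e-06). At 100 nM it had 12.2, 11.5 and 12.8 RPKM, between those levels and again without overlap with DMSO (-0.46 ± 0.113, adjusted p = 0.00753). STARD4, a cytosolic sterol carrier, had 4.33, 5.66 and 6.96 RPKM at 500 nM, against 11.01, 13.2 and 14.9 RPKM in DMSO (-1.22 ± 0.258, adjusted p = 0.00108). Here replicate 1 was the lowest at each dose, whereas for INSIG1 it was the highest. The 100 nM fall of STARD4 (-1.004 ± 0.258, adjusted p = 0.0112) lost its call without replicate 1 of that dose (-0.69, adjusted p = 0.0526). SCAP, the escort of the SREBPs, was not called at any dose, with log2 fold changes between -0.12 and 0.03.

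Of the mevalonate genes, 3 of 7 fell at 100 nM and 4 at 500 nM, where 1 rose. HMGCS1, which makes HMG-CoA, had 23.7, 36.1 and 39.4 RPKM in DMSO, 14.6, 11.8 and 8.52 with 100 nM, 15.7, 12.1 and 10.4 with 150 nM, 16.6, 10.5 and 9.20 with 200 nM and 18.6, 11.8 and 8.31 RPKM with 500 nM. No treated library reached the DMSO range, and the falls were close to each other at the lowest and the highest dose (-1.50 ± 0.319, adjusted p = 0.00379 at 100 nM; -1.40 ± 0.319, adjusted p = 0.00206 at 500 nM). IDI1, the isopentenyl diphosphate isomerase of the same pathway, was the 1 gene that rose at 500 nM. It had 17.4, 23.4 and 24.9 RPKM in DMSO, 50.6, 28.6 and 15.1 with 100 nM, 64.5, 31.1 and 20.2 with 150 nM, 75.3, 37.1 and 22.5 with 200 nM and 90.2, 52.4 and 37.8 RPKM with 500 nM. Replicate 1 was the highest and replicate 3 the lowest at every dose, and groups overlapped with DMSO except at 500 nM. Its rise was called at 500 nM alone (1.38 ± 0.517, adjusted p = 0.0389), and leaving out any of these 6 libraries except 500 nM replicate 3 ended the call, with adjusted p between 0.0576 and 0.149 (without 500 nM replicate 1, 1.04, adjusted p = 0.149).

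Among the 9 genes from squalene to cholesterol, 5 fell at 100 nM and 5 at 500 nM, and 0 rose. TM7SF2 had 0.200, 0.342 and 0.362 RPKM at 100 nM and 0.483, 0.202 and 0.393 RPKM at 500 nM, against 0.884, 0.840 and 0.703 RPKM in DMSO, from 6 to 15 reads per library at 100 nM (-1.31 ± 0.274, adjusted p = 0.00262). DHCR7 had 3.34, 2.41 and 2.30 RPKM at 500 nM, against 5.34, 5.17 and 7.93 RPKM in DMSO (-1.18 ± 0.181, adjusted p = 5.48e-05). SQLE, the squalene epoxidase, fell to 28.1, 25.6 and 24.7 RPKM at 500 nM, against 38.03, 47.9 and 52.96 RPKM in DMSO (-0.81 ± 0.129, adjusted p = 7.08e-05). FDFT1, NSDHL and HSD17B7 were not called at any dose.

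The fatty acid genes fell together at the highest dose, 4 of 4 genes of palmitate synthesis and 3 of 4 of elongation and desaturation at 500 nM. ACSS2, which makes acetyl-CoA from acetate, had 2.73, 2.21 and 2.04 RPKM at 500 nM, against 5.14, 5.55 and 7.12 RPKM in DMSO (-1.34 ± 0.170, adjusted p = 8.9e-06). SCD had 80.4, 45.8 and 38.8 RPKM at 500 nM, against 97.6, 91.3 and 175 RPKM in DMSO (-1.15 ± 0.375, adjusted p = 0.0196). FASN, the fatty acid synthase, had 25.3, 20.6 and 20.6 RPKM at 500 nM, against 28.5, 27.4 and 43.5 RPKM in DMSO (-0.55 ± 0.217, adjusted p = 0.0434). DMSO replicate 3 stood above the other 2 for both, and without it neither was called (-0.85, adjusted p = 0.0937 for SCD; -0.34, adjusted p = 0.219 for FASN). Neither was called without 500 nM replicate 2 or 3. At 100 nM neither passed (SCD -0.62, adjusted p = 0.252; FASN -0.38, adjusted p = 0.217). FADS2 alone among these 8 genes was called at no dose, with 9.18, 9.73 and 10.6 RPKM at 500 nM, against 8.59, 6.99 and 9.51 RPKM in DMSO.

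Leaving out DMSO replicate 3 lowered the 100 nM count to 10 of 29, and leaving out any single library kept the 500 nM count between 17 and 20. Summed levels of 8 genes of cycling cells moved with the drug: 756.2 to 1277 RPKM over the 12 treated libraries, against 488.1 to 619 RPKM in DMSO. The summed mesenchymal markers were 729 to 910.5 RPKM at 500 nM, against 1962 to 2267 RPKM in DMSO, and the epithelial markers 1.77 to 2.62 RPKM, against 0.833 to 0.962 RPKM. At 500 nM 4 of 6 mesenchymal markers were called lower and 0 higher. Of the 7 epithelial markers 5 were called higher and 2 lower. Among SUV39H1, SUV39H2 and TWIST1, 1 was called higher and 1 lower at 500 nM, with log2 fold changes from -1.22 to 0.46. The part of these lists and genes in the falls of the 29 genes was not tested.

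**Figure D2:**
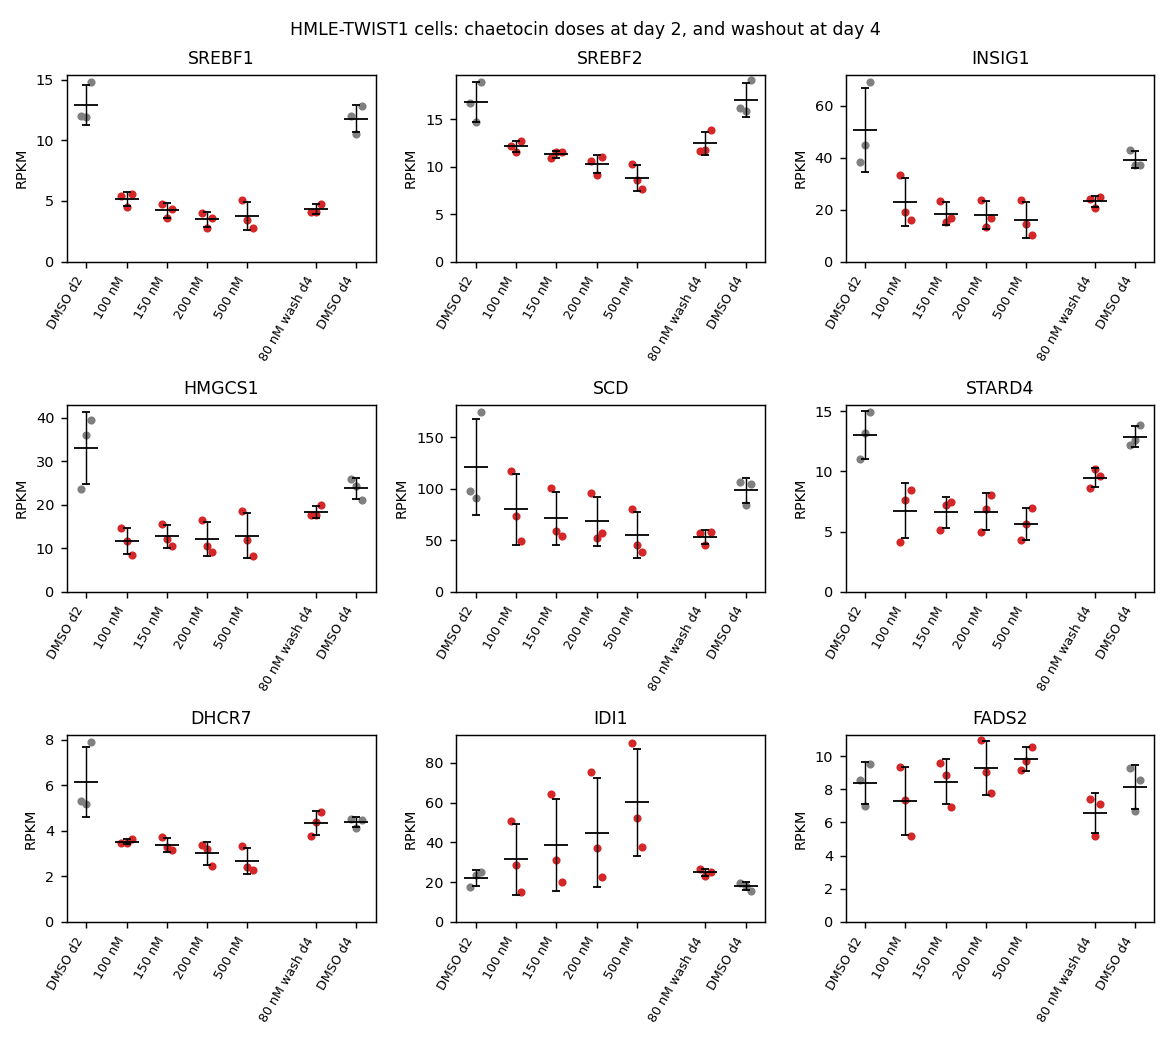
RPKM of 9 genes by library (points) in HMLE-TWIST1 cells with DMSO and rising chaetocin dose at day 2, and with 80 nM washout and DMSO at day 4, bars giving the mean and SD of 3 libraries. SREBF1 lies between 2.79 and 5.59 RPKM in all 12 treated day 2 libraries, against 11.9 to 14.8 RPKM in DMSO, while IDI1 reaches 90.2 RPKM at 500 nM.

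Between the ends of the dose range, 500 nM against 100 nM, few of the 29 differed. SREBF2 was the 1 gene called lower of 29 (7.28% of all genes) and 0 were higher (9.28%), with 10.3, 8.57 and 7.61 RPKM at 500 nM, against 12.2, 11.5 and 12.8 RPKM at 100 nM (-0.47 ± 0.113, adjusted p = 0.0116). With same-numbered replicates as pairs, which deviate together here, 3 of 29 were called, where 24.2% of all genes were called. All 3 were lower: SREBF2, ACSS2 and FADS1. In the fit without pairs, the call of SREBF2 was lost without 100 nM replicate 3 or without 500 nM replicate 2 or 3. There 5 genes were called without 500 nM replicate 1. INSIG1 (-0.51, adjusted p = 0.356 without pairs) and HMGCS1 (0.11, adjusted p = 0.859) did not pass, nor did IDI1 (1.01, adjusted p = 0.199).

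After 80 nM for 15 h and 48 h in fresh medium, SREBF1 was the gene of the 29 furthest below its control, as it was at 150 to 500 nM. Of 29, 14 fell (18.2% of all genes) and 2 rose (18.2%), with a median of -0.31 against -0.01 over all genes. SREBF1 had 4.07, 4.07 and 4.79 RPKM after washout, against 12.01, 10.6 and 12.8 RPKM in DMSO (-1.45 ± 0.107, adjusted p = 3.95e-07). The 2 groups did not overlap, and both were deposited in 1 part of the table. SCD had 56.8, 45.2 and 57.7 RPKM, against 106, 84.7 and 105 RPKM in DMSO (-0.89 ± 0.106, adjusted p = 3.78e-05). INSIG1 had 24.1, 20.8 and 24.8 RPKM, against 42.9, 37.2 and 37.3 RPKM (-0.75 ± 0.085, adjusted p = 1.28e-05), and neither gene's groups overlapped.

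SREBF2 and HMGCS1 had smaller falls than SREBF1 after washout, SREBF2 to 11.7, 11.8 and 13.9 RPKM, against 16.2, 15.8 and 19.1 RPKM in DMSO (-0.45 ± 0.085, adjusted p = 0.000859). HMGCS1 had 17.6, 17.5 and 19.9 RPKM, against 25.9, 24.3 and 21.02 RPKM (-0.37 ± 0.082, adjusted p = 0.00287). FASN had 18.6, 18.8 and 20.9 RPKM, against 28.1, 22.6 and 23.9 RPKM (-0.35 ± 0.084, adjusted p = 0.00457). Of the genes of palmitate synthesis 4 of 4 fell, although ACACA lost its call without any 1 library but 80 nM replicate 3 (adjusted p of 0.0646 to 0.181). Of the 9 squalene to cholesterol genes 2 fell, TM7SF2 and SQLE. TM7SF2 had 0.601, 0.393 and 0.797 RPKM, against 1.27, 0.857 and 1.11 RPKM (-0.83 ± 0.224, adjusted p = 0.00948).

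The 2 genes that rose belong to the mevalonate pathway. IDI1 had 26.4, 22.9 and 25.4 RPKM after washout, against 19.7, 18.3 and 15.7 RPKM in DMSO (0.48 ± 0.108, adjusted p = 0.00322), without overlap. ACAT2, which joins acetyl-CoA units, had 7.91, 6.82 and 7.68 RPKM, against 6.59, 5.91 and 5.65 RPKM (0.30 ± 0.103, adjusted p = 0.0327), a call lost without 80 nM replicate 1 or 3 or DMSO replicate 2 or 3 (adjusted p of 0.0842 to 0.123). DHCR7, which fell at each day 2 dose, had 3.79, 4.40 and 4.85 RPKM, against 4.53, 4.15 and 4.50 RPKM (-0.02, adjusted p = 0.899). Cycling genes summed to 824.7 to 915.6 RPKM after washout, against 566.4 to 686.3 RPKM in DMSO. Mesenchymal markers, of which 3 of 6 fell, summed to 1334 to 1771 RPKM, against 1929 to 2385 RPKM, and epithelial markers, of which 3 of 7 rose, to 1.98 to 2.47 RPKM, against 0.700 to 1.02 RPKM. The part of these lists in the differences was not tested.

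The knockdown lowered its targets in both lines and at both days. In HMLE-TWIST1 cells at day 2 SUV39H1 had 1.47, 1.44 and 1.29 RPKM in the knockdown, against 4.24, 3.49 and 3.55 RPKM in scramble (-1.40 ± 0.188, adjusted p = 3.73e-05). SUV39H2 had 6.09, 6.21 and 4.46 RPKM, against 13.1, 12.6 and 12.6 RPKM (-1.20 ± 0.126, adjusted p = 1.99e-06). The other 3 knockdowns gave log2 fold changes of -1.31 to -0.88 for SUV39H1 and -0.79 to -0.42 for SUV39H2, all called. In HMLE cells at day 4 only 1 of these 2 genes was without overlap between knockdown and scramble libraries. TWIST1, the overexpressed gene of the HMLE-TWIST1 line, fell with the knockdown in those cells at day 2 (-0.48 ± 0.092, adjusted p = 0.00147) and day 4 (-0.47 ± 0.086, adjusted p = 0.00029). In HMLE cells it fell at day 2 (-0.59 ± 0.092, adjusted p = 0.000112) and was not called at day 4 (0.16, adjusted p = 0.206). Its part in the results that follow was not tested.

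At day 2 the knockdown lowered lipid synthesis genes in both lines. In HMLE-TWIST1 cells 17 of 29 fell (7.6% of all genes) and 0 rose (7.72%), with a median of -0.41. In HMLE cells 24 fell (16.5%) and 1 rose (12.6%), with a median of -0.56, and the median over all genes lay between -0.03 and 0.00. The 17 that fell in HMLE-TWIST1 cells all fell in HMLE cells too, and the 2 comparisons share no library. How many of all genes fell in both lines was not counted.

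In HMLE-TWIST1 cells at day 2 FADS1 fell furthest, to 21.2, 20.3 and 20.9 RPKM in the knockdown, against 54.5, 53.6 and 56.1 RPKM in scramble (-1.39 ± 0.066, adjusted p = 3.61e-11). FADS1 and FADS2 overlap on opposite strands, and whether counting used the strand is not given in the sources used here. INSIG1 had 45.1, 43.7 and 43.3 RPKM, against 85.9, 81.8 and 87.4 RPKM (-0.95 ± 0.052, adjusted p = 3.27e-10). SQLE had 36.6, 33.99 and 34.01 RPKM, against 64.6, 63.97 and 62.6 RPKM (-0.87 ± 0.050, adjusted p = 5.46e-10). SCD had 122, 127 and 136 RPKM, against 223, 228 and 242 RPKM (-0.85 ± 0.055, adjusted p = 3.15e-09). In each of the 4, knockdown and scramble libraries lay further apart than the spread within either group.

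HMGCS1 had 31.4, 29.8 and 27.6 RPKM in HMLE-TWIST1 knockdown at day 2, against 51.1, 51.8 and 48.4 RPKM in scramble (-0.77 ± 0.069, adjusted p = 3.21e-07). FASN had 27.1, 25.6 and 28.4 RPKM, against 49.3, 46.7 and 48.2 RPKM (-0.83 ± 0.062, adjusted p = 2.23e-08). SREBF1 fell (-0.49 ± 0.064, adjusted p = 2.37e-05) to 9.66, 9.11 and 9.89 RPKM, against 14.3, 13.02 and 13.1 RPKM. SREBF2 was not called, at 18.7, 18.7 and 19.7 RPKM, against 19.9, 19.2 and 19.8 RPKM (-0.04, adjusted p = 0.699), and STARD4 did not pass either (0.01, adjusted p = 0.991). By role, 4 of 7 mevalonate genes, 5 of 9 squalene to cholesterol genes, 2 of 5 regulators, 4 of 4 palmitate genes and 2 of 4 elongation and desaturation genes fell.

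In HMLE cells at day 2 SCD had 93.2, 87.4 and 97.8 RPKM in the knockdown, against 196, 210.2 and 213 RPKM in scramble (-1.16 ± 0.055, adjusted p = 3.33e-11). TM7SF2 had 5.14, 5.59 and 5.22 RPKM, against 9.44, 9.17 and 10.46 RPKM (-0.86 ± 0.159, adjusted p = 0.000495). MVD, the last enzyme before isopentenyl diphosphate, had 2.25, 2.25 and 2.22 RPKM, against 4.23, 4.02 and 3.94 RPKM (-0.85 ± 0.119, adjusted p = 3.26e-05). CYP51A1 had the largest fold (-1.52 ± 0.339, adjusted p = 0.00236), but from 2 to 5 reads per knockdown library and 11 to 12 per scramble library. All 7 mevalonate genes and 8 of 9 squalene to cholesterol genes fell.

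INSIG1 had 14.3, 13.5 and 14.6 RPKM in HMLE knockdown, against 21.9, 22.5 and 22.6 RPKM in scramble (-0.66 ± 0.052, adjusted p = 3.67e-08). HMGCS1 (-0.53 ± 0.069, adjusted p = 1.5e-05), SREBF1 (-0.68 ± 0.064, adjusted p = 3.4e-07), SREBF2 (-0.38 ± 0.057, adjusted p = 5.62e-05) and FASN (-0.50 ± 0.062, adjusted p = 8.07e-06) fell as well. ELOVL6, which lengthens palmitate, was the 1 gene that rose, to 10.4, 9.96 and 8.68 RPKM, against 7.97, 6.74 and 7.34 RPKM (0.39 ± 0.078, adjusted p = 0.0009). Cycling genes summed to 247.8 to 276.7 RPKM in the HMLE knockdown, against 193.6 to 203.1 RPKM in scramble, and to 593.7 to 630.8 RPKM in the HMLE-TWIST1 knockdown, against 673.2 to 683.2 RPKM in scramble. Of the 8 cycling genes 7 rose in HMLE cells and 2 fell in HMLE-TWIST1 cells. Mesenchymal markers in the HMLE-TWIST1 knockdown summed to 1730 to 1820 RPKM, against 2274 to 2391 RPKM in scramble, with 3 of 6 lower. In the HMLE knockdown epithelial markers summed to 1891 to 2037 RPKM, against 3343 to 3502 RPKM in scramble, with 2 of 7 lower, and the adipocyte list to 85.5 to 96.3 RPKM, against 184.8 to 212.6 RPKM. The part of these lists in the falls was not tested.

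Against scramble of the same day, the HMLE-TWIST1 knockdown showed the opposite direction at day 4. There 19 of 28 genes tested rose (19.9% of all genes) and 3 fell (18%), with a median of 0.48 against 0.00 over all genes. STARD4 had 16.6, 17.1 and 16.8 RPKM in the knockdown, against 6.34, 6.30 and 5.97 RPKM in scramble (1.44 ± 0.084, adjusted p = 2.59e-10). HSD17B7, a ketosteroid reductase of the cholesterol route, had 1.96, 1.92 and 1.88 RPKM, against 0.608, 0.551 and 0.957 RPKM (1.43 ± 0.171, adjusted p = 2.77e-06). FADS2 had 5.23, 5.47 and 5.97 RPKM, against 2.35, 2.08 and 1.90 RPKM (1.39 ± 0.147, adjusted p = 6.73e-07). All 3 were higher in 3 of 3 knockdown libraries than in any scramble library.

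HMGCS1 had 20.7, 22.7 and 20.2 RPKM in HMLE-TWIST1 knockdown at day 4, against 8.19, 8.12 and 8.48 RPKM in scramble (1.35 ± 0.089, adjusted p = 1.56e-09). INSIG1 had 33.7, 33.4 and 31.3 RPKM, against 15.1, 13.9 and 13.1 RPKM (1.22 ± 0.088, adjusted p = 4.65e-09). SCD rose less, to 57.05, 58.8 and 65.02 RPKM, against 47, 40.2 and 39.2 RPKM (0.52 ± 0.109, adjusted p = 0.0022). FASN also rose (0.77 ± 0.141, adjusted p = 0.00119), with 23.9, 25.1 and 23.7 RPKM, against 13.6, 14.3 and 14.6 RPKM. The squalene to cholesterol genes made up the fullest group, with 7 of 8 tested higher and 0 lower, beside 4 higher and 1 lower of 7 mevalonate genes.

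SREBF2 rose slightly, to 14.9, 16.5 and 16.3 RPKM, against 13.9, 14.2 and 13.5 RPKM (0.20 ± 0.069, adjusted p = 0.0313), a call lost without any 1 library but knockdown replicate 1 (adjusted p of 0.0524 to 0.122). SREBF1 was not called (-0.06, adjusted p = 0.531), at 8.74, 8.99 and 8.89 RPKM, against 9.12, 9.01 and 9.65 RPKM. The 3 that fell were FADS1 (-0.61 ± 0.065, adjusted p = 6.08e-07), at 15.1, 15.7 and 16.2 RPKM, against 25.6, 23.98 and 22.5 RPKM, the acetyl-CoA carboxylase ACACA (-0.55 ± 0.060, adjusted p = 9.96e-07) and the phosphomevalonate kinase PMVK (-0.46 ± 0.102, adjusted p = 0.00156). ACACA had 8.02, 7.46 and 7.97 RPKM, against 11.5, 11.1 and 11.8 RPKM, and PMVK 7.30, 6.61 and 6.71 RPKM, against 9.69, 9.59 and 9.25 RPKM. The scramble itself moved between the days in this line, as described below. Cycling genes summed to 450.9 to 470.1 RPKM in the knockdown, against 603.6 to 648.4 RPKM in scramble, and mesenchymal markers to 806.6 to 823.2 RPKM, against 1494 to 1594 RPKM; their part was not tested.

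In HMLE cells at day 4 the knockdown lowered 13 of 28 genes (13.6% of all genes) and raised 3 (12.5%), while 12 were not called, with a median of -0.23. TM7SF2 had 7.49, 7.90 and 9.40 RPKM in the knockdown, against 19.97, 20.96 and 19.6 RPKM in scramble (-1.29 ± 0.148, adjusted p = 3.55e-06). SCD had 86.3, 83.3 and 89.99 RPKM, against 219, 204 and 156 RPKM (-1.14 ± 0.109, adjusted p = 6.16e-06). ACACA had 11.2, 9.81 and 10.9 RPKM, against 21.7, 23.2 and 21.4 RPKM (-1.05 ± 0.060, adjusted p = 3.84e-10). PMVK came next (-0.71 ± 0.102, adjusted p = 4.48e-05), with 11.5, 10.9 and 11.9 RPKM, against 20.9, 18.2 and 17.4 RPKM.

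The HMLE rises at day 4 were STARD4, at 44.05, 44.6 and 50.1 RPKM in the knockdown, against 36.7, 29.3 and 27.6 RPKM in scramble (0.58 ± 0.084, adjusted p = 5.22e-05), INSIG1 (0.38 ± 0.088, adjusted p = 0.00397) and FADS1 (0.30 ± 0.065, adjusted p = 0.00221). INSIG1 had 19.3, 20.6 and 21.7 RPKM, against 18.1, 16.1 and 13.6 RPKM, and FADS1 had 4.42, 4.24 and 3.96 RPKM, against 3.31, 3.53 and 3.41 RPKM. HMGCS1 fell (-0.32 ± 0.089, adjusted p = 0.0134) with libraries close to overlap, at 19.8, 20.9 and 26.1 RPKM, against 30.4, 26.4 and 26.1 RPKM, and lost its call without scramble replicate 1 (adjusted p = 0.0739) or without knockdown replicate 1 (0.0772) or 2 (0.0641). SREBF1 fell (-0.45 ± 0.068, adjusted p = 8.37e-05), and SREBF2 (-0.10, adjusted p = 0.33) and FASN (-0.28, adjusted p = 0.188) did not pass. STARD4 and INSIG1 rose, and ACACA and PMVK fell, in both lines at day 4. The adipocyte list summed to 159.5 to 200.2 RPKM in the HMLE knockdown, against 271.4 to 319.9 RPKM in scramble, and its part was not tested.

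**Figure D3:**
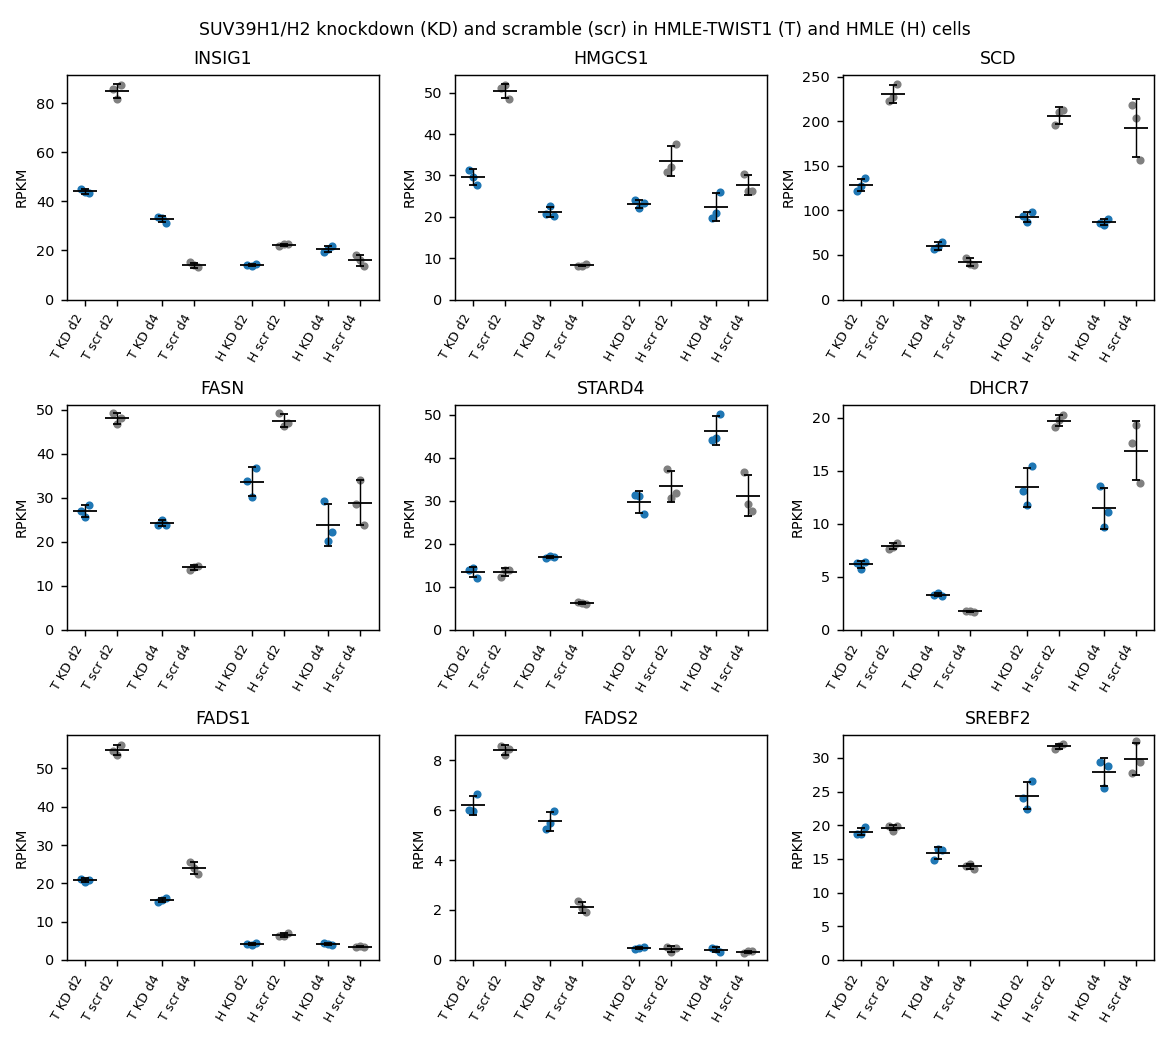
RPKM of 9 genes by library (points) in knockdown (blue) and scramble (grey) of HMLE-TWIST1 (T) and HMLE (H) cells at day 2 (d2) and day 4 (d4), bars giving the mean and SD of 3 libraries. INSIG1 in HMLE-TWIST1 cells is at 43.3 to 45.1 RPKM in the knockdown, against 81.8 to 87.4 RPKM in scramble at day 2, and at 31.3 to 33.7 RPKM, against 13.1 to 15.1 RPKM at day 4.

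The knockdown effect differed between the lines at day 4 for most of the genes, tested as the effect in HMLE-TWIST1 minus that in HMLE cells. It was higher in HMLE-TWIST1 for 22 of 28 (12% of all genes) and lower for 1 (10.7%), with a median of 0.72. HMGCS1 led (1.67 ± 0.126, adjusted p = 8.79e-08), from a rise in HMLE-TWIST1 and a fall in HMLE cells, followed by SCD (1.66 ± 0.153, adjusted p = 1e-05), TM7SF2 (1.498 ± 0.209, adjusted p = 5.75e-05) and DHCR7 (1.48 ± 0.174, adjusted p = 1e-05). FADS1 was the 1 gene on the other side (-0.91 ± 0.091, adjusted p = 1.88e-06). INSIG1 (0.85 ± 0.125, adjusted p = 0.000101) and STARD4 (0.86 ± 0.119, adjusted p = 5.26e-05) rose in both lines and more in HMLE-TWIST1. At day 2 the effect differed for 10 of 29, higher for 6 (7.42% of all genes) and lower for 4 (4.73%), with a median of 0.12. The widest called differences were FADS1 (-0.75 ± 0.093, adjusted p = 4.72e-05), ELOVL6 (-0.59 ± 0.111, adjusted p = 0.00177) and EBP, the sterol isomerase (0.53 ± 0.120, adjusted p = 0.00663).

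Scramble libraries set day 4, after a further 48 h in fresh medium, against day 2. In HMLE-TWIST1 cells 25 of 29 genes fell (14.8% of all genes) and 0 rose (13.8%), with a median of -1.31 against 0.00 over all genes, the lowest median of the 29 in any comparison. HMGCS1 had 8.19, 8.12 and 8.48 RPKM at day 4, against 51.1, 51.8 and 48.4 RPKM at day 2 (-2.60 ± 0.084, adjusted p = 8.53e-19). INSIG1 had 15.1, 13.9 and 13.1 RPKM, against 85.9, 81.8 and 87.4 RPKM (-2.60 ± 0.073, adjusted p = 4.02e-20). SCD had 47, 40.2 and 39.2 RPKM, against 223, 228 and 242 RPKM (-2.46 ± 0.091, adjusted p = 6.98e-15). DHCR7 came next (-2.17 ± 0.109, adjusted p = 6.63e-15), and FASN (-1.76 ± 0.115, adjusted p = 3.48e-10), SREBF1 (-0.54 ± 0.066, adjusted p = 2.94e-07) and SREBF2 (-0.50 ± 0.063, adjusted p = 4.96e-07) fell too. For each of these genes the days did not overlap. SCAP, PMVK, ELOVL6 and TM7SF2 were the 4 not called.

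In HMLE scramble cells 18 of 29 fell at day 4 against day 2 (20.4% of all genes) and 3 rose (21.8%), with a median of -0.33. ACAT2 had 4.41, 3.22 and 3.12 RPKM at day 4, against 7.12, 6.48 and 7.01 RPKM at day 2 (-0.95 ± 0.110, adjusted p = 4.76e-08). FADS1 had 3.31, 3.53 and 3.41 RPKM, against 6.16, 6.17 and 7.09 RPKM (-0.92 ± 0.065, adjusted p = 4.09e-12), LSS, the lanosterol synthase, fell (-0.82 ± 0.076, adjusted p = 9.76e-10), and FDPS, the farnesyl diphosphate synthase, came next (-0.78 ± 0.076, adjusted p = 2.5e-09). TM7SF2 rose, with 19.97, 20.96 and 19.6 RPKM at day 4, against 9.44, 9.17 and 10.46 RPKM at day 2 (1.06 ± 0.157, adjusted p = 2.9e-06), beside PMVK (0.49 ± 0.117, adjusted p = 0.00111) and SCAP (0.28 ± 0.092, adjusted p = 0.0146). FASN (-0.73 ± 0.115, adjusted p = 2.75e-05), INSIG1 (-0.50 ± 0.073, adjusted p = 2.84e-06) and HMGCS1 (-0.28 ± 0.084, adjusted p = 0.00882) fell, HMGCS1 without its call when day 2 replicate 3 was left out (-0.19, adjusted p = 0.0899). SCD (-0.11, adjusted p = 0.353), SREBF1 (-0.09, adjusted p = 0.307) and SREBF2 (-0.09, adjusted p = 0.275) did not pass. The rise of SCAP lost its call without day 2 replicate 1 or 2 or day 4 replicate 2 (adjusted p of 0.0545 to 0.108). In 17 genes the fall was called in both lines, and the share of all genes that did so was not counted.

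DMSO libraries also set the days side by side, with DMSO for 48 h at day 2 and for 15 h before washing at day 4. In HMLE-TWIST1 cells 0 of 29 fell (0.349% of all genes) and 0 rose (0.256%) by limma, 12 had an unadjusted p under 0.05, and the other settings tried also called 0. HMGCS1 had 25.9, 24.3 and 21.02 RPKM at day 4, against 23.7, 36.1 and 39.4 RPKM at day 2 (-0.45, adjusted p = 0.372). INSIG1 had 42.9, 37.2 and 37.3 RPKM, against 38.2, 44.8 and 68.98 RPKM (-0.33, adjusted p = 0.597). The day 2 group was spread widely. At day 4 the 48 h in fresh medium followed 48 h of duplex in scramble and 15 h of DMSO here. The scramble and DMSO courses thus differ in length, and the difference between them was not tested. In HMLE cells 16 fell (16%) and 1 rose (19.2%), with a median of -0.40. FASN had 26.8, 28.2 and 30.3 RPKM at day 4, against 48.4, 53.8 and 64.1 RPKM at day 2 (-0.95 ± 0.152, adjusted p = 0.000231), with FADS1 (-0.91 ± 0.142, adjusted p = 0.000159), ELOVL6 (-0.87 ± 0.089, adjusted p = 3.12e-07) and DHCR7 (-0.85 ± 0.142, adjusted p = 0.000126) next. TM7SF2 was again the gene that rose (0.73 ± 0.203, adjusted p = 0.00807).

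Cycling genes also dropped in HMLE cells between the days. In scramble they summed to 38.1 to 46.0 RPKM at day 4, against 193.6 to 203.1 RPKM at day 2. In DMSO they summed to 100.9 to 156.7 RPKM at day 4, against 517 to 561.1 RPKM at day 2. In HMLE-TWIST1 scramble they were at 603.6 to 648.4 RPKM at day 4, against 673.2 to 683.2 RPKM at day 2. Mesenchymal markers in HMLE-TWIST1 scramble summed to 1494 to 1594 RPKM at day 4, against 2274 to 2391 RPKM at day 2, with 4 of 6 lower, and leukocyte markers to 3.53 to 4.89 RPKM, against 1.15 to 1.29 RPKM, where CD14 was the 1 leukocyte marker with values. In HMLE scramble epithelial markers summed to 2021 to 2353 RPKM at day 4, against 3343 to 3502 RPKM at day 2, with 2 of 7 lower. Mesenchymal markers there summed to 166 to 196 RPKM at day 4, against 95.9 to 109.6 RPKM at day 2. The mesenchymal sum rose although only 1 of the 6 markers was called higher and 3 were called lower. The part of these lists in the falls was not tested.

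Without drug or knockdown, the 29 genes differed between the lines in both directions in 3 of 4 comparisons, as all genes did. In scramble at day 4 they differed mostly downward. In HMLE-TWIST1 against HMLE cells, 6 of 29 were higher (24.6% of all genes) and 11 lower (22.6%) in DMSO at day 2, and 12 higher (34.9%) and 12 lower (32.2%) in DMSO at day 4. In scramble at day 2, 10 were higher (33.8%) and 11 lower (35.1%), close to the shares of all genes. In scramble at day 4, 2 of 28 were higher (37.1%) and 21 lower (37.3%). The medians were -0.23 and 0.11 in DMSO, and -0.00 and -0.96 in scramble. FADS1 and FADS2 were higher in all 4, and MVK, SQLE, TM7SF2, EBP, DHCR7, SREBF2, STARD4 and ACACA lower in all 4, which share no library. The share of all genes called the same way in all 4 was not counted, so these 10 are not set against it.

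FADS2 and FADS1 had the largest differences upward. FADS2 had 8.59, 6.99 and 9.51 RPKM in HMLE-TWIST1 DMSO at day 2, against 0.657, 0.729 and 0.729 RPKM in HMLE (3.53 ± 0.183, adjusted p = 3.46e-11). In scramble at day 2 it had 8.55, 8.19 and 8.46 RPKM, against 0.533, 0.308 and 0.484 RPKM (4.24 ± 0.146, adjusted p = 1.04e-13). FADS1 had 54.5, 53.6 and 56.1 RPKM in HMLE-TWIST1 scramble at day 2, against 6.16, 6.17 and 7.09 RPKM in HMLE (3.08 ± 0.066, adjusted p = 3.99e-18). FADS2 also shares exon sequence on its strand with FEN1, a replication nuclease, and how reads in such overlaps were assigned is not given in the sources used here. At day 2 INSIG1 was also higher in the HMLE-TWIST1 line, with 85.9, 81.8 and 87.4 RPKM in scramble, against 21.9, 22.5 and 22.6 RPKM (1.93 ± 0.052, adjusted p = 1.06e-16), and IDI1 too (1.44 ± 0.082, adjusted p = 1.05e-11). At day 4 in scramble INSIG1 had 15.1, 13.9 and 13.1 RPKM, against 18.1, 16.1 and 13.6 RPKM, and was not called (-0.17, adjusted p = 0.0848).

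Several sterol genes lay lower in HMLE-TWIST1 cells. TM7SF2 had 0.606, 0.711 and 0.480 RPKM in HMLE-TWIST1 scramble at day 4, against 19.97, 20.96 and 19.6 RPKM in HMLE (-4.98 ± 0.148, adjusted p = 9.4e-16). It shares exon sequence on its strand with VPS51. DHCR7 had 1.74, 1.78 and 1.65 RPKM, against 17.6, 19.3 and 13.8 RPKM (-3.25 ± 0.123, adjusted p = 3.33e-14), and in DMSO at day 2 5.34, 5.17 and 7.93 RPKM, against 15.4, 19.3 and 20.9 RPKM (-1.60 ± 0.181, adjusted p = 8.14e-07). STARD4 had 12.2, 12.6 and 13.8 RPKM in DMSO at day 4, against 34.9, 37.3 and 39.9 RPKM (-1.53 ± 0.082, adjusted p = 2.73e-10). MVK, the mevalonate kinase, had 1.56, 1.51 and 1.51 RPKM in DMSO at day 4, against 3.38, 3.57 and 3.43 RPKM (-1.16 ± 0.109, adjusted p = 1.85e-07). For each of these genes no HMLE-TWIST1 library reached the lowest HMLE library of its comparison.

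Of the other genes the rule names, ELOVL6 was lower in HMLE-TWIST1 DMSO at day 2, with 4.93, 5.29 and 5.11 RPKM, against 11.8, 13.03 and 14.1 RPKM in HMLE (-1.34 ± 0.140, adjusted p = 3.08e-07). ACSS2 was higher there, with 5.14, 5.55 and 7.12 RPKM, against 2.71, 2.51 and 3.83 RPKM (0.98 ± 0.170, adjusted p = 0.000109). SCD turned with the day in scramble, at 223, 228 and 242 RPKM, against 196, 210.2 and 213 RPKM in HMLE at day 2 (0.16 ± 0.055, adjusted p = 0.0134), and at 47, 40.2 and 39.2 RPKM, against 219, 204 and 156 RPKM at day 4 (-2.18 ± 0.109, adjusted p = 5.56e-10). The day 2 call of SCD was lost without HMLE replicate 1 (adjusted p = 0.0555) or HMLE-TWIST1 replicate 3 (0.0808). HMGCS1 turned likewise (0.59 ± 0.069, adjusted p = 3.52e-07 at day 2; -1.73 ± 0.089, adjusted p = 3.94e-12 at day 4). Cycling genes summed to 603.6 to 683.2 RPKM in HMLE-TWIST1 scramble, against 38.1 to 203.1 RPKM in HMLE scramble, and to 488.1 to 686.3 RPKM, against 100.9 to 561.1 RPKM in DMSO, and their part was not tested.

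**Figure D4:**
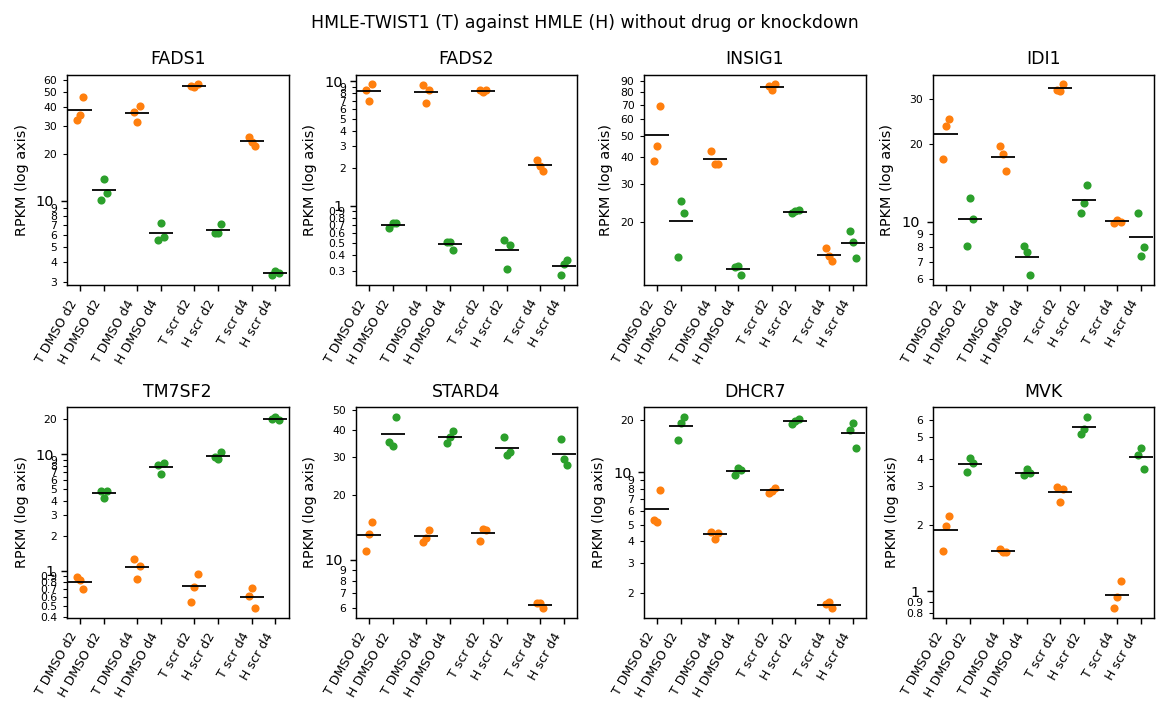
RPKM on a log axis of 8 genes by library (points) in HMLE-TWIST1 (T, orange) and HMLE (H, green) cells in DMSO and scramble (scr) at day 2 (d2) and day 4 (d4), bars giving the mean of 3 libraries. FADS2 is between 1.90 and 9.51 RPKM in HMLE-TWIST1 and between 0.276 and 0.729 RPKM in HMLE libraries, while INSIG1 loses its separation in scramble at day 4.

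Genes next to these pathways were counted in the same way. Of 14 tested genes of sterol uptake and of other sterol synthesis steps, 8 fell and 1 rose at 500 nM chaetocin (23.1% and 27.1% of all genes), 6 fell and 2 rose after washout (18.2% each), and 5 fell and 1 rose in HMLE-TWIST1 knockdown at day 2 (7.6% and 7.72%). At day 4 that knockdown raised 8 and lowered 1 (19.9% and 18% of all genes), and HMLE-TWIST1 scramble had 10 lower and 0 higher at day 4 against day 2 (14.8% and 13.8%). NPC1, which exports cholesterol from lysosomes, was the gene that rose at 500 nM, with 14.04, 19.02 and 18.7 RPKM, against 6.81, 5.54 and 7.14 RPKM (1.40 ± 0.173, adjusted p = 6.64e-06). In HMLE-TWIST1 knockdown at day 4 MSMO1, a sterol oxidase, had 15.97, 16.1 and 16.04 RPKM, against 6.28, 5.998 and 6.82 RPKM in scramble (1.33 ± 0.082, adjusted p = 5.51e-10).

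Further lists were counted at 500 nM, where 23.1% of all genes fell and 27.1% rose, and in HMLE-TWIST1 knockdown at day 4, where 18% fell and 19.9% rose. Of 9 genes of SREBP processing 4 fell and 2 rose at 500 nM, and 5 fell and 1 rose in the knockdown. Of 10 LXR targets and sterol export genes 3 fell and 2 rose at 500 nM, and 1 fell and 3 rose in the knockdown. The isoprenoid branch had 3 lower and 3 higher of 11 at 500 nM, and 2 lower and 0 higher in the knockdown. Further fatty acid synthesis, elongation and activation genes had 10 lower and 4 higher of 24 at 500 nM, and 10 lower and 6 higher of 25 in the knockdown. Fatty acid oxidation had 8 lower and 0 higher of 17 at 500 nM, and 4 lower and 7 higher of 19 in the knockdown.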

How the data were processed

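Stranded libraries came from total RNA after ribosomal depletion, per the labels' protocols. The submitters' processing notes name STAR, HTSeq and hg19 (GRCh37), without versions or roles. The values used are the authors' deposited log2 RPKM values, made in 3 separately filtered and normalised parts (DMSO with 80 nM, 15 libraries; duplexes, 24; 100 to 500 nM, 12). Each part's values step in whole reads above an offset of 2.00 to 2.10 reads, and whole reads were recovered for 100% of 1077324 values, all within 0.0001 of a whole number. A further deposited table with 81 unnamed columns was not used here.

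Reads were scaled over all 51 libraries by a trimmed mean of log ratios (30% of ratios and 5% of levels trimmed on each side), which joins the parts. Genes with the equivalent of 10 reads in 3 libraries and 15 reads in all were fitted with limma 3.58.1 (R 4.3.3, statmod 1.5.0) on log2 CPM with a prior count of 2, an intensity trend and robust moderation, n = 3 per group, two-sided. The day 2 drug groups, the washout groups, each duplex day and each pair of days had their own fit. CYP51A1 failed the filter in the day 4 duplex fit. The script was tested on simulated data with independent libraries and the same spread for every gene. That setting is simpler than these libraries, so it checks the code only. RPKM in the text uses these scaled reads and the gene lengths behind the deposited values. Only the comparisons of 100 to 500 nM with DMSO cross parts.

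The 29 genes and all lists were chosen with earlier results of these data known. Named are, in each comparison, up to 4 called genes of the 29 with the largest fold each way, INSIG1, HMGCS1, SREBF1, SREBF2, SCD and FASN, the targeted genes, markers, and up to 4 genes per neighbouring list, of which 1 gene is not reported here; the other genes were named after their values were seen. Alternatives were median-of-ratios scaling, a prior count of 0.5, no filter, precision weights, the deposited values, a replicate block and leaving out each library. Same-numbered replicates deviated together only between 500 and 100 nM, with correlations of 0.21 to 0.50 over the 3 pairs across genes. A count with these as pairs is therefore given there beside the fit without pairs. The values by gene there come from the fit without pairs. The block of the paired fit was shared by all libraries of the day 2 drug fit, DMSO included.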

Additional observations from a re-analysis of the deposited data

Results flagged for a closer look

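The effect of the SUV39H1/H2 knockdown differed between the lines beyond the threshold (limma, interaction of line and knockdown, adjusted over all genes tested) for 10 of the 29 genes at day 2 and 23 of 28 at day 4. Values are the log2 fold change in HMLE-TWIST1 minus that in HMLE cells. At day 2 the difference was positive for MVK (0.48), LSS (0.32), EBP (0.53), SREBF2 (0.34), ACSS2 (0.49) and SCD (0.31), where HMLE cells fell further. It was negative for INSIG1 (-0.29), FASN (-0.33) and FADS1 (-0.75), which fell further in HMLE-TWIST1 cells, and for ELOVL6 (-0.59), which rose in HMLE cells. Of the 12 fits without 1 library, 10 ended the call of LSS, 6 that of MVK and 3 that of FASN.

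At day 4 the mevalonate genes ACAT2 (0.77), HMGCS1 (1.67), MVK (1.08), IDI1 (0.68) and FDPS (0.36) had positive differences. So had the squalene to cholesterol genes FDFT1 (0.98), SQLE (0.29), LSS (0.66), TM7SF2 (1.498), HSD17B7 (1.25), EBP (1.04) and DHCR7 (1.48). The regulators SREBF1 (0.39), SREBF2 (0.29), INSIG1 (0.85) and STARD4 (0.86) and the palmitate genes ACSS2 (0.77), ACACA (0.50) and FASN (1.05) were on the same side. ELOVL6 (0.34), SCD (1.66) and FADS2 (1.08) were too, and FADS1 (-0.91) was on the other. Of the 12 fits without 1 library, 8 ended the call of FDPS, 7 that of SREBF2 and 6 that of ELOVL6. On the log2 scale SUV39H2 fell by 0.79 in HMLE-TWIST1 and by 0.49 in HMLE cells at day 4, and the part of this in the differences was not tested.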

How the results depend on the processing

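No gene called among the 29 changed direction under any alternative. The count of called genes stayed within 1.5 times its reported value in all but 1 comparison, that of 500 with 100 nM chaetocin, which called 1 gene. It called 3 with the replicate block (24.2% of all genes) and 3 on the deposited log2 RPKM values (16.6%), and between 0 and 5 when 1 library was left out. Elsewhere same-numbered replicates did not deviate together in every pair (lowest correlation in a comparison -0.17 to 0.09). A replicate block there moved the count by at most 3, as in HMLE-TWIST1 against HMLE in DMSO at day 2 (20 with the block, 17 without). The sum over comparisons of calls kept was 339 of 344 with the block (98.5%), 339 of 344 with median-of-ratios scaling, 342 of 344 without the filter and 342 of 344 with a prior count of 0.5. It was 340 of 344 with precision weights, 265 of 278 on the deposited values (95.3%) and 2067 of 2262 with 1 library left out (91.4%). Leaving out 1 library gave 10 to 14 calls at 100 nM, 17 to 20 at 500 nM, 14 to 16 after washout, 15 to 18 in HMLE-TWIST1 knockdown at day 2 and 19 to 21 at day 4. CYP51A1, with 1 to 19 reads per library, has a wide counting error.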
